A study of Mus musculus with 24 samples.

Results

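The genes described here are 36 subunits of voltage-gated potassium channels and their close relatives, measured as RNA in the mouse nucleus accumbens. They were chosen by name, through the gene symbol that each Ensembl identifier maps to, and all 36 of 36 were found among the 55401 gene rows deposited. All 36 also passed the filter on low counts, and the fewest reads counted for any of them in a library was 38. Bulk mRNA libraries were made from tissue punched on both sides of the brain, 24 in all, in 4 groups of 6. The groups Sham Gfp and SNI Gfp had received, into the accumbens of both sides, an AAV8 vector in which the hSyn promoter drives Egfp alone, and the groups Sham Mef2c and SNI Mef2c the same kind of vector with Mef2c and Egfp. SNI stands for spared nerve injury, here of the tibial variant on the left side, a rodent model of lasting neuropathic pain, and sham mice had the operation without injury to the nerve. All mice were 8 to 9 weeks old and were C57BL/6J or DBA/2J, and all 4 groups carried a virus, so none was untreated. The sources used here do not say which strain or sex a library came from, how many mice it pools or what share of cells the vector reached, so p-values measure the spread between libraries. The hSyn promoter is used to restrict expression to neurons.

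Voltage-gated potassium channels let potassium leave the neuron when its membrane depolarises, and so end the action potential, set the interval to the next one and hold the resting state. A channel is built of 4 pore-forming alpha subunits, joined in many types by auxiliary subunits (Kv beta and KChIP proteins) or by silent alpha subunits that form no channel alone and modify Kv2 channels. The principal cells of the accumbens are medium spiny neurons, whose delayed firing is known to depend on A-type (Kv4), Kv1 and Kv7 currents, while Kv3 channels are known for the fast spiking of interneurons.

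No member passed the test for nerve injury with either vector, for the vector with either surgery, or for the interaction of surgery and vector (edgeR quasi-likelihood test on the counts, Benjamini-Hochberg adjusted p under 0.05 over 23738 genes). The members did differ widely between libraries of one group. Kcnab1 and Kcnip2 followed the level of medium spiny neuron markers from library to library, Kcnma1, Kcnf1 and Kcnip3 that of cortical neuron markers, and the Kv3 genes ran opposite to the medium spiny markers. These library differences come first, since they set the width of every interval that follows.

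Library totals lay between 25477019 and 36570108 counts. The deposited counts cover the whole span of a gene, introns included, and take no account of strand. Where a gene whose counts sum to 1000 or more over the 24 libraries lies within another on the opposite strand, the enclosing gene had no fewer counts than the enclosed one in any library, in 1300 of 1300 pairs. Member spans ran from 1902 bp (Kcna3) to 1135406 bp (Kcnip4), and in 17 of 36 members exons made up less than 10% of the span. Kcna3 overlaps Gm27008, which has more counts, so its values are uncertain. The counts of genes inside or beside them came to 75.1% of the own counts of Kcna6, 55.7% of those of Kcnh1, 43.8% of those of Kcnip4, 36% of those of Kcnh7 and 31.8% of those of Kcnh3.

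The vector's own gene, Mef2c, ranged from 139 to 212 CPM in Sham Gfp with a median of 168, from 123 to 469 in Sham Mef2c with a median of 229, from 133 to 221 in SNI Gfp with a median of 152, and from 474 to 832 in SNI Mef2c with a median of 550. CPM are counts scaled to a common library size, corrected by TMM. Only SNI Mef2c stood above all other libraries. Mef2c was 3.64-fold higher in SNI Mef2c than in SNI Gfp (two-sided exact permutation test on log2 CPM, p = 0.00216, the smallest that 924 assignments give), but 1.30-fold higher in Sham Mef2c than in Sham Gfp (exact permutation p = 0.264). Sham Mef2c libraries 2 and 5 lay below all 6 Sham Gfp libraries, at 125 and 123 CPM, so the group is called the libraries labelled Sham Mef2c wherever a direction is drawn from it. The vector difference also coincided with other cell markers. T cell markers summed to between 5.05 and 38.6 CPM in Sham Gfp and to between 0.164 and 0.546 CPM in the libraries labelled Sham Mef2c, and all 6 of them passed the test as lower there. Markers of microglia (6 of 7) and of the interferon response (8 of 8) passed in the same direction. The index numbers in the library labels are also in blocks of 6 by group. The labels do not say what these numbers stand for, and group and anything that follows them cannot be told apart.

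The level of each member per kilobase of gene span (FPKM as deposited, mean of 24 libraries) was highest for Kcna2 at 16.9, Kcna1 at 15.1 and Kcnf1 at 13.4, and lowest for Kcns3 at 0.0513 and Kcnh5 at 0.0517. Since introns enter the length, genes with long introns sit low on this scale. Kcna2 and Kcna1, which form axonal and presynaptic Kv1 channels, did not differ beyond their spread over libraries (16 ± 4.56 and 13.9 ± 2.29 FPKM in Sham Gfp, SD, n = 6). Behind them came Kcna5 (9.67 FPKM), the KChIP gene Kcnip2 (8.96), the ELK channel gene Kcnh3 (7.14), Kcna4 (6.80), the silent subunit gene Kcns2 (6.79) and the Kv3 gene Kcnc1 (5.83). On the same FPKM scale, the middle of the order held silent and auxiliary subunit genes, Kcnv1 (4.6), Kcnab3 (4.22), Kcnab2 (2.99), Kcnip3 (1.63), Kcng1 (1.23) and Kcnab1 (0.676). The pore-forming genes there were Kcnh2 (2.29), Kcna3 (2.2), Kcnh4 (2), Kcnc4 (1.89), Kcna6 (1.84), Kcnd1 (1.34), Kcnq3 (0.702) and Kcnd3 (0.508). The low end, mostly genes with long spans, held Kcns1 (0.405), Kcnc2 (0.382), Kcnd2 (0.352), Kcnq5 (0.34), Kcnma1 (0.319), Kcnh1 (0.267), Kcnip1 (0.159), Kcnh7 (0.101), Kcnip4 (0.0984), Kcng2 (0.0787) and Kcnb2 (0.0669) FPKM. In CPM, the members summed to between 2877 and 4317 CPM per library.

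The members varied more among libraries of one group than most genes. Their SD within groups had a median of 0.33 on the log2 CPM scale, against 0.135 for the 15759 other genes at or above the lowest member's level. Of the 36 members, 35 lay above the median SD of genes of like level and 21 above the 90th percentile. The exception was Kcnd1, a Kv4 gene, whose libraries ran from 17.3 to 24.6 CPM, a ratio of 1.42 from highest to lowest. At the other end Kcnh7, an ERG channel gene, ran from 27.4 to 188 CPM, a ratio of 6.88. The ratio was above 2 for 29 of 36 members, with a median of 2.75. A few libraries held most of the extremes. SNI Mef2c library 1 was the highest library for 9 members and the lowest for 7, SNI Mef2c library 6 the highest for 7, Sham Mef2c library 6 the highest for 5 and Sham Mef2c library 4 the lowest for 8.

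**Figure D1:**
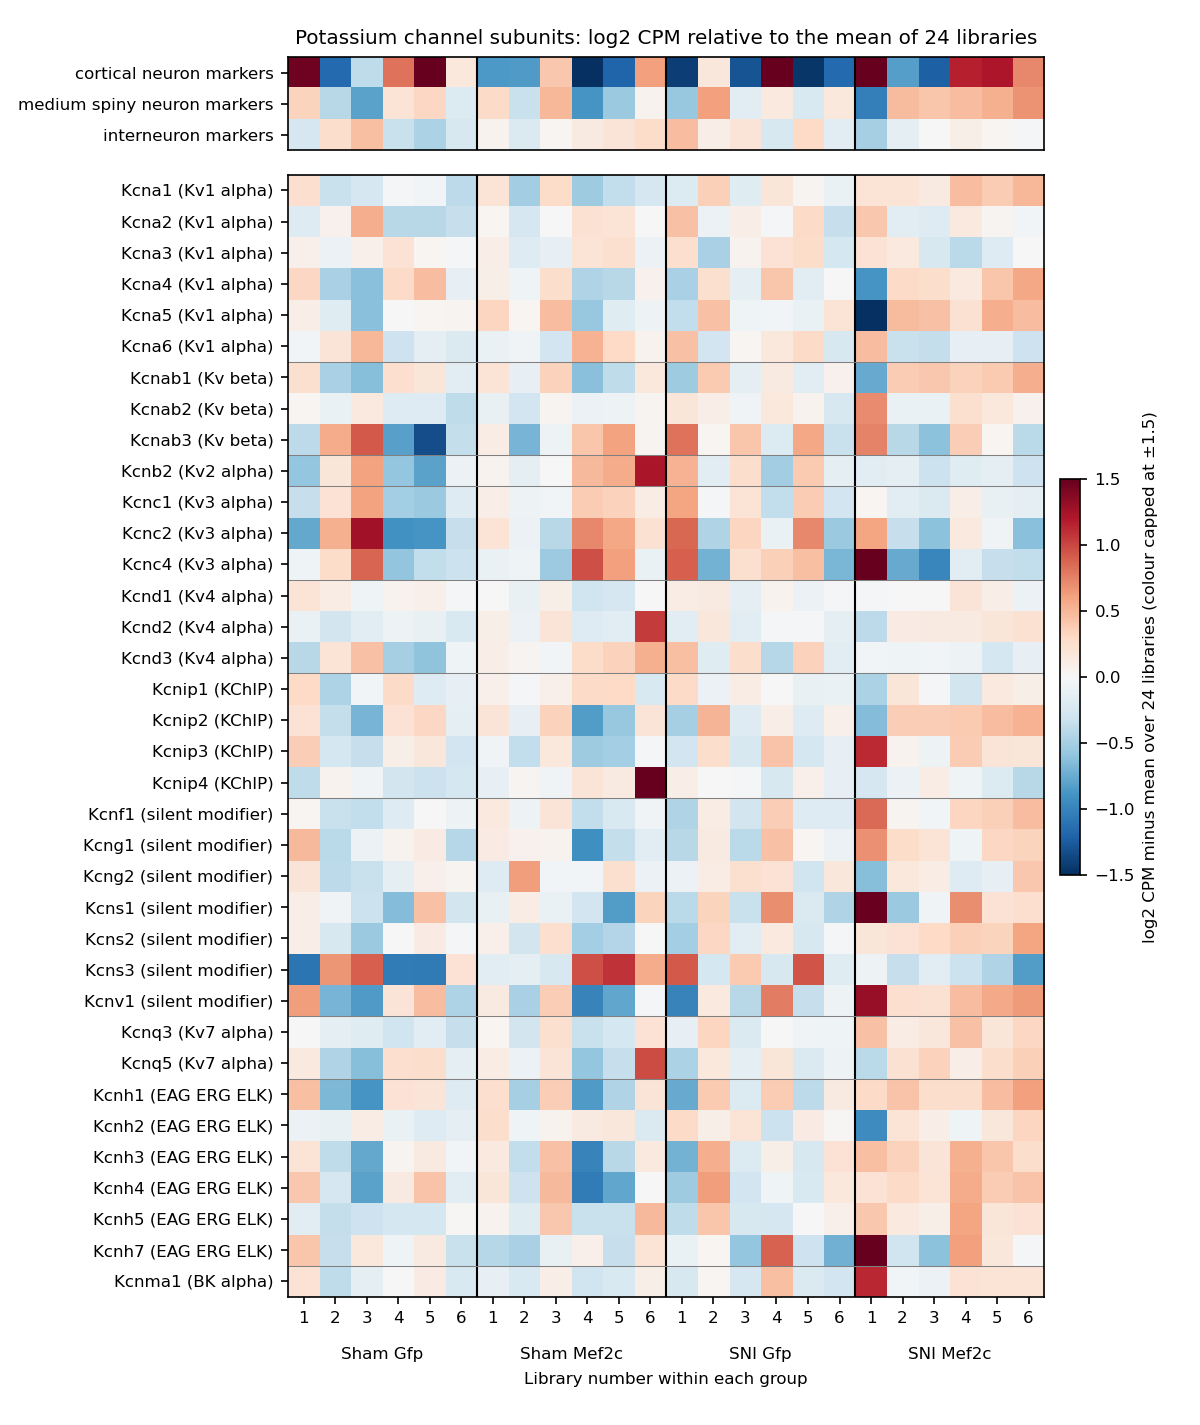
Each square is a library (columns, 6 per group) and a gene or marker mean (rows), coloured by its log2 CPM minus the mean over the 24 libraries, with colours capped at 1.5 either way; rows are ordered by subunit role. SNI Mef2c library 1 stands apart in many rows, Sham Mef2c library 6 in Kcnip4, Kcnd2, Kcnq5, Kcnb2 and Kcnd3, and rows such as Kcnab1 and Kcnip2 repeat the medium spiny neuron marker row.

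To describe this variation, each member's log2 CPM was set against the mean log2 CPM of 10 medium spiny neuron markers and of 10 cortical neuron markers, after centring on the group means. P-values come from 100000 permutations within groups and are adjusted over the 72 relations. With the medium spiny neuron mean, 23 of 36 members had an adjusted p under 0.05 for Pearson's r, 13 positive and 10 negative, and 27 for Spearman's rho. The sign was the same in all 4 groups for 20 of the 23. With the cortical mean it was 18 of 36, 14 positive and 4 negative, with 23 for rho and the same sign in 4 groups for 12 of the 18. Without the 2 libraries farthest from the median of the marker mean (SNI Mef2c 1 and Sham Mef2c 4 for the first, SNI Mef2c 1 and SNI Gfp 4 for the second), no sign changed, and 21 of the 23 and 14 of the 18 kept an r of at least 0.5 in size. The 2 marker means had an r of 0.20 with each other. Neither these relations nor those added below were computed for all genes. Their counts therefore cannot be read as particular to the members. In bulk tissue fewer cells of a type and less RNA per cell cannot be told apart, and how the punches were placed was not tested.

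The closest followers of the medium spiny neuron mean were auxiliary subunits. Kcnab1 encodes Kv beta 1, which gives Kv1 channels fast inactivation. It lay between 181 and 336 CPM in Sham Gfp with a median of 284, between 182 and 356 in Sham Mef2c with a median of 286, between 194 and 369 in SNI Gfp with a median of 274, and between 166 and 411 in SNI Mef2c with a median of 368. The 4 groups overlapped, and the lowest of all 24 libraries belonged to the group with the highest median. Its r with the medium spiny neuron mean was 0.99 (rho 0.95, adjusted permutation p = 5.14e-05 and 7.2e-05 in turn, both from the smallest p that the permutations give; 0.98 without the 2 farthest libraries), and 0.98 to 1.00 within the groups.

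Kcnip2 encodes KChIP2, a calcium-binding partner of Kv4 channels that raises A-type current. Its CPM ran from 129 to 259 (median 216) in Sham Gfp, 118 to 266 (median 216) in Sham Mef2c, 148 to 297 (median 202) in SNI Gfp and 134 to 302 (median 273) in SNI Mef2c. In SNI Mef2c, 5 of 6 libraries lay between 270 and 302 CPM and library 1 at 134. Its r with the medium spiny neuron mean was 0.98 (rho 0.96, adjusted permutation p = 5.14e-05 and 7.2e-05; 0.98 without the 2 farthest).

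Pore-forming genes followed the same mean. Kcna4, the alpha subunit of the A-type channel Kv1.4 that Kcnab1 partners, had an r of 0.94 and Kcna5 0.91. The silent subunit gene Kcns2 had 0.83, the ELK gene Kcnh4 0.81, the Kv7 gene Kcnq5, which contributes to the M-current, 0.80, the EAG gene Kcnh1 0.79, the ELK gene Kcnh3 0.72 and Kcna1 0.71. Kcnd2, the main Kv4 subunit of many principal neurons, had an r of 0.59 (adjusted permutation p = 0.0119), which fell to 0.38 without the 2 farthest libraries. In contrast, 10 members ran opposite to the medium spiny mean, led by Kcna6 and the Kv3 gene Kcnc4, each with an r of -0.88, and followed by Kcnc2 (-0.80), Kcns3 (-0.74), Kcna2 (-0.69), Kcnab3 (-0.67), Kcnc1 (-0.65), Kcnd3 (-0.60), Kcnb2 (-0.51) and Kcna3 (-0.48). All 3 Kv3 members were among them. Kcna6 and Kcna3 overlap other genes with many counts, as given above, and whether their relations are their own was not tested.

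**Figure D2:**
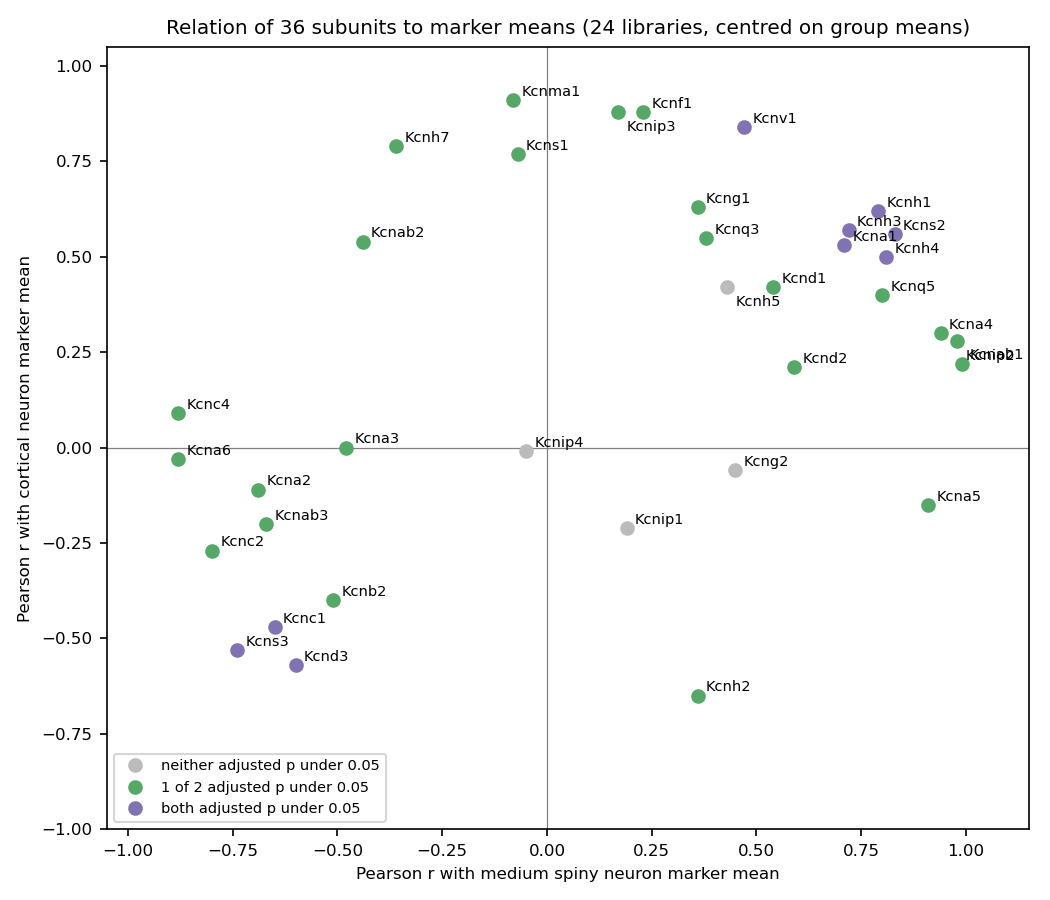
Each point is a member, placed by its Pearson r with the medium spiny neuron marker mean (x axis) and with the cortical neuron marker mean (y axis) over 24 libraries centred on group means; colour gives how many of the 2 adjusted permutation p-values are under 0.05. Kcnab1, Kcnip2 and Kcna4 lie at the far right, Kcnma1, Kcnf1 and Kcnip3 at the top, and the Kv3 genes Kcnc1, Kcnc2 and Kcnc4 at the left.

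Over all 24 libraries, other members were closer to the cortical mean. Kcnma1 encodes the pore of the BK channel, which opens to calcium and voltage together. It lay between 174 and 263 CPM in Sham Gfp (median 215), 184 and 242 in Sham Mef2c (median 200), 185 and 308 in SNI Gfp (median 193) and 212 and 494 in SNI Mef2c (median 261). The 2 highest libraries of all were SNI Mef2c 1 at 494 and SNI Gfp 4 at 308, the same 2 that lie farthest out in the cortical marker mean, at 5.70 and 5.36 log2 CPM. Its r was 0.91 (rho 0.92, adjusted permutation p = 5.14e-05 and 7.2e-05) and 0.94 without those 2.

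Next came Kcnip3 (r = 0.88), which encodes the calcium sensor KChIP3 that also acts as a transcriptional repressor under the name DREAM. Silent subunit genes made up a large part of the list: Kcnf1 (0.88), Kcnv1 (0.84), Kcns1 (0.77) and Kcng1 (0.63), joined by Kcnh7 (0.79). Without SNI Mef2c 1 and Sham Mef2c 4, the r with the medium spiny neuron mean went from 0.47 to 0.89 for Kcnv1. It went from 0.17 to 0.83 for Kcnip3, 0.23 to 0.73 for Kcnf1, 0.36 to 0.62 for Kcng1 and -0.08 to 0.60 for Kcnma1. For Kcns1 and Kcnh7 it was then 0.42 and 0.24. How far these members part from the medium spiny pattern thus rests partly on those libraries. Kcnv1 ran from 20.2 to 56.5 CPM in Sham Gfp, 18.2 to 47.2 in Sham Mef2c, 18.2 to 62.3 in SNI Gfp and 43.1 to 90.4 in SNI Mef2c. All groups overlapped, although no SNI Mef2c library was below 43.1 CPM. Negative relations with the cortical mean were found for the ERG1 gene Kcnh2 (-0.65), Kcnd3 (-0.57), Kcns3 (-0.53) and Kcnc1 (-0.47). SNI Mef2c library 1 carries 1693 CPM of summed cortical markers, where the median of its own group is 405 CPM. The other groups' medians lie between 183 and 286 CPM, and the highest SNI Gfp library is at 896 CPM.

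A further 72 relations were added after the values had been seen, with the mean of 6 interneuron markers and with the share of counts in genes over 200 kb. With the interneuron mean 16 members had an adjusted p under 0.05, 9 positive and 7 negative, but only 4 of them had the same sign in all 4 groups. Kcnc1, the Kv3.1 gene of fast-spiking cells, led with an r of 0.84 (rho 0.80, adjusted permutation p = 0.0009 and 0.00216). It ran from 163 to 365 CPM in Sham Gfp (median 200), 228 to 314 in Sham Mef2c (median 259), 187 to 363 in SNI Gfp (median 256) and 207 to 259 in SNI Mef2c (median 220). Within groups its r was 0.98 in Sham Gfp, 0.66 in Sham Mef2c, 0.99 in SNI Gfp and -0.23 in SNI Mef2c, so the relation was not seen in the last group, where library 1 has the lowest interneuron mean. Kcnd3 (0.82), Kcnb2 (0.80), Kcns3 (0.71), Kcnab3 (0.68), Kcna2 (0.66) and Kcnc2 (0.65) were the next. Each of these also had a negative r within SNI Mef2c, from -0.35 (Kcnb2) to -0.63 (Kcna2). The 4 with the same sign in all groups were Kcnip4 (0.39), Kcnv1 (-0.70), Kcnf1 (-0.61) and Kcng1 (-0.53). With the share of counts in long genes 9 members had an adjusted p under 0.05 for r, all positive, and 20 for rho, and 6 of the 9 had the same sign in all 4 groups. Kcnd2 had the highest r, 0.86 (rho 0.70, adjusted permutation p = 0.00418 and 0.0024), which was 0.52 without the 2 farthest libraries (Sham Mef2c 6 and Sham Gfp 2). Kcnq5 had 0.74 (adjusted permutation p = 0.00816), and 0.49 without them. Kcnq3 had 0.65 (adjusted permutation p = 0.00693), and 0.85 without them.

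**Figure D3:**
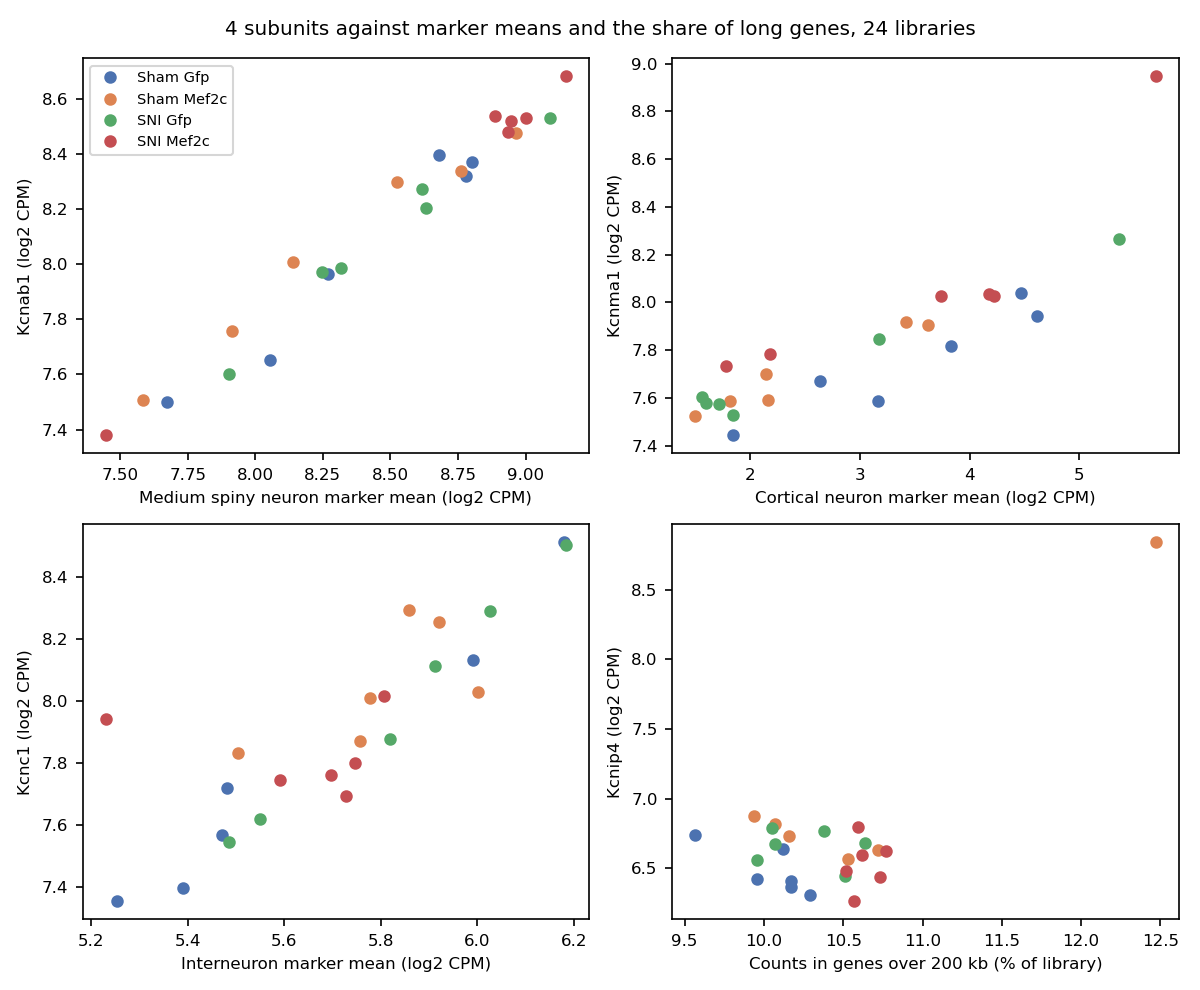
Each point is a library, coloured by group, with the log2 CPM of a member on the y axis against a marker mean (log2 CPM) or the share of counts in genes over 200 kb (%) on the x axis. Kcnab1 rises along 1 line through all groups, Kcnma1 rises with the cortical mean up to SNI Mef2c library 1, Kcnc1 follows the interneuron mean except in that library, and the Kcnip4 panel holds 1 library far from the other 23.

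The stretch of 250 bases before the start is shown for 1 member from each of the 3 patterns, as the reference sequence that such genes share or do not share. Letters are from RefSeq on GRCm38.p6 (the build also called mm10), written 5′ to 3′ on the strand of the gene, and capitals mark each GC box, GGGCGG or its reverse complement CCGCCC. Kcnip2 is at chr19:45816064-45816313 on the minus strand, Kcnma1 at chr14:24004206-24004455 on the minus strand, at a start inside the gene's longest annotated span, and Kcnc1 at chr7:46396218-46396467 on the plus strand.
Kcnip2: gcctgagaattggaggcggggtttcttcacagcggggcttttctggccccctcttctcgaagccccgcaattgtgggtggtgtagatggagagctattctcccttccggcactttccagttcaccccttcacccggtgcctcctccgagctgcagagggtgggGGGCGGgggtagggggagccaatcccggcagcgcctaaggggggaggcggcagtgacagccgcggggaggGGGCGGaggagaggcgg
Kcnma1: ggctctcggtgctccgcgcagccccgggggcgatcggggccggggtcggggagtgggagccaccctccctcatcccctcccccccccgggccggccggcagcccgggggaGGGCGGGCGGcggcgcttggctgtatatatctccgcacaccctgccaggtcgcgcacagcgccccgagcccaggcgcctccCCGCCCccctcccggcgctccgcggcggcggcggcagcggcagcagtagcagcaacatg
Kcnc1: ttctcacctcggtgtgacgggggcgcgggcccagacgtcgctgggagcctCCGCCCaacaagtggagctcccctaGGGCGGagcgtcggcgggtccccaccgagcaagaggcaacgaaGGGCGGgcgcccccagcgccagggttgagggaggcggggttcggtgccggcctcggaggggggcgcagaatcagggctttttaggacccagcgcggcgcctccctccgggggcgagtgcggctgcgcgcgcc
The upstream stretches hold 2, 3 and 3 GC boxes, and 15, 31 and 30 CG dinucleotides in the same order, where the 2 in Kcnma1 that overlap are printed as 1 run of capitals. RefSeq promoters were at hand for 26 members, 40 in all. A GC box was found in 20 of the 40 (50%), against 32.7% of all 32851 promoters. Median GC content was 60.4% against 52.4%. The core of the MEF2 consensus, TAAAAATA or TATTTTTA, the cAMP response element TGACGTCA and the TATA box letters TATAAA or TTTATA were in 0 of the 40, against 2.45%, 1.55% and 12.4% of all promoters, both strands being searched. A match here is a run of letters, not a site shown to be bound.

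The first comparison asked what nerve injury does to these genes with the control vector. No member was called in SNI Gfp against Sham Gfp, where 0% of all genes were called. That 0% depended on single libraries: 3.68% of all genes were called without Sham Gfp library 3 and 5.83% without SNI Gfp library 6, with 0 members called in both cases. No member had an unadjusted p under 0.05 either, against 12.3% of all genes. The median log2 fold change of the 36 was 0.10, with 27 positive, against 0.01 for all genes tested. Cell markers moved too, with none of the following passing. All 7 microglia markers were lower (median -0.69, 6 with an unadjusted p under 0.05), as were all 6 T cell markers (-1.425, 1). All 5 smooth muscle and pericyte markers were higher (0.76, 2), and 4 of 6 astrocyte markers had such a p. All 10 medium spiny neuron markers (0.09, 0) and 5 of 10 cortical ones (0.01, 0) were higher. Their part in the members' values was not tested. The 6 members with the smallest p were Kcnq3, a Kv7 subunit gene of the M-current, Kcnab2, Kcnh5, Kcnh2, Kcnd3 and Kcna2, with log2 fold changes from 0.145 (Kcnab2) to 0.187 (Kcnd3). Kcnq3 ran from 164 to 207 CPM in Sham Gfp (median 186) and from 179 to 260 in SNI Gfp (median 201). These ranges overlap between 179 and 207 CPM, and the log2 fold change was 0.17 (SE 0.10, edgeR adjusted p = 0.572). DESeq2 also called 0 of the 35 members it tested, where it called 2.33% of all genes, while limma-voom with quality weights called Kcnc1 (0.46, SE 0.15, adjusted p = 0.0419) and Kcnd3 (0.44, SE 0.14, adjusted p = 0.0472), where it called 11.7% of all genes.

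These intervals set a limit on the size of an effect. The 95% interval of the log2 fold change lay within 1 of zero for 35 of 36 members and within 0.5 for 21. The widest reached 1.09 for Kcns3, a silent subunit gene counted at 1.28 to 5.43 CPM in these groups. For Kcnd1 the interval ran from 0.878 to 1.07 times the Sham Gfp level.

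With the Mef2c vector the same question gave wider differences that did not pass. No member was called in SNI Mef2c against the libraries labelled Sham Mef2c, again with 0% of all genes called, and DESeq2 (35 members tested) and limma-voom also called 0 members, where they called 0.0549% and 0% of all genes. An unadjusted p under 0.05 was found for 17 of 36 members (47.2%), 14 higher and 3 lower after injury, against 16.1% of all genes. The median size of the members' log2 fold change, sign ignored, was 0.32, against 0.11 for all genes tested. The smallest adjusted p of a member was 0.223, shared by Kcna1, Kcns2, Kcnq3, Kcnip3, Kcnf1 and Kcnip4.

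Kcna1, the Kv1.1 gene of axons, ran from 61.3 to 107 CPM in the libraries labelled Sham Mef2c (median 71.5) and from 97.3 to 125 in SNI Mef2c (median 109). Most SNI Mef2c libraries were above most sham libraries, with an overlap between 97.3 and 107 CPM. The log2 fold change was 0.48 (SE 0.14, interval 0.19 to 0.78, edgeR adjusted p = 0.223).

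Of the 7 silent subunit genes, Kcnf1, Kcng1, Kcns1, Kcns2 and Kcnv1 had positive values, and all of these had a positive relation with the cortical mean. Kcns2 ran from 28.2 to 48.1 CPM in the sham libraries and from 46.0 to 60.6 in SNI Mef2c. Kcnf1 ran from 48.5 to 72 and from 61.3 to 113 CPM in the same order. Both pairs of ranges overlap at their edges, with log2 fold changes of 0.46 (SE 0.14) and 0.41 (SE 0.14), both with an edgeR adjusted p of 0.223. Kcnv1 was the member with the highest value, 0.84 (SE 0.30, adjusted p = 0.229 by edgeR), and Kcns3 ran the other way (-0.80, SE 0.36, adjusted p = 0.278 by edgeR).

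Kcnq3 ran from 165 to 246 CPM in the sham libraries (median 193) and from 225 to 283 in SNI Mef2c (median 248), an overlap between 225 and 246. Its log2 fold change was 0.33 (SE 0.10, edgeR adjusted p = 0.223). Kcnip3 ran from 71.9 to 116 and from 98.6 to 225 CPM, where library 1 of SNI Mef2c was the highest. Its log2 fold change was 0.57 (SE 0.19, edgeR adjusted p = 0.223) and 0.36 (SE 0.16) without that library. Kcnma1 went from 0.44 (SE 0.17) to 0.21 (SE 0.13) and Kcnh7 from 0.79 (SE 0.35) to 0.19 (SE 0.25) when the same library was left out. Other members moved away from the sham group without it. The SNI Mef2c mean went from 340 to 375 CPM for Kcnab1 (sham mean 275) and from 257 to 281 for Kcnip2 (sham 200). It went from 31.4 to 35.9 CPM for Kcna5 (sham 27.2) and from 38.6 down to 25.8 for Kcnc4 (sham 42.4).

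Kcnb2 (mm10 chr1:15287254-15723750, plus strand) encodes Kv2.2, a delayed rectifier subunit with which silent subunits can join. It ran from 15.8 to 42.2 CPM in Sham Gfp (median 22.4), 25.3 to 64.7 in the libraries labelled Sham Mef2c (median 33.7), 19.4 to 40 in SNI Gfp (median 29.3) and 22.2 to 25.2 in SNI Mef2c (median 24.7). It was the 1 member whose ranges did not overlap between SNI Mef2c and the libraries labelled Sham Mef2c, a separation found for 1.1% of all genes, and the gap was 25.2 against 25.3 CPM. Its log2 fold change was -0.65 (SE 0.24, interval -1.14 to -0.15, edgeR adjusted p = 0.229), and -0.43 (SE 0.22, adjusted p = 0.346) without Sham Mef2c library 6.

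Kcnip4 (mm10 chr5:48389502-49524907, minus strand) encodes KChIP4, a partner of Kv4 channels, and its values turned on 1 library. It ran from 78.9 to 107 CPM in Sham Gfp (median 85.1), 94.7 to 459 in the libraries labelled Sham Mef2c (median 109), 87.2 to 110 in SNI Gfp (median 102) and 76.7 to 111 in SNI Mef2c (median 92.7). Sham Mef2c library 6 was at 459 CPM and the next highest library of that group at 117. The log2 fold change of SNI Mef2c against that group was -0.825 (SE 0.29, edgeR adjusted p = 0.223) and -0.20 (SE 0.09, adjusted p = 0.308) without library 6. The same library had 12.5% of its counts in genes over 200 kb, against 9.57% to 10.8% in the other 23, and it was also the highest library for Kcnd2, Kcnd3, Kcnq5 and Kcnb2, all of which span over 200 kb. Over the 24 libraries the r of Kcnip4 with that share was 0.73 (rho 0.17, adjusted permutation p = 0.263 and 0.5), and -0.33 without Sham Mef2c 6 and Sham Gfp 2, so the r rests on those libraries.

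**Figure D4:**
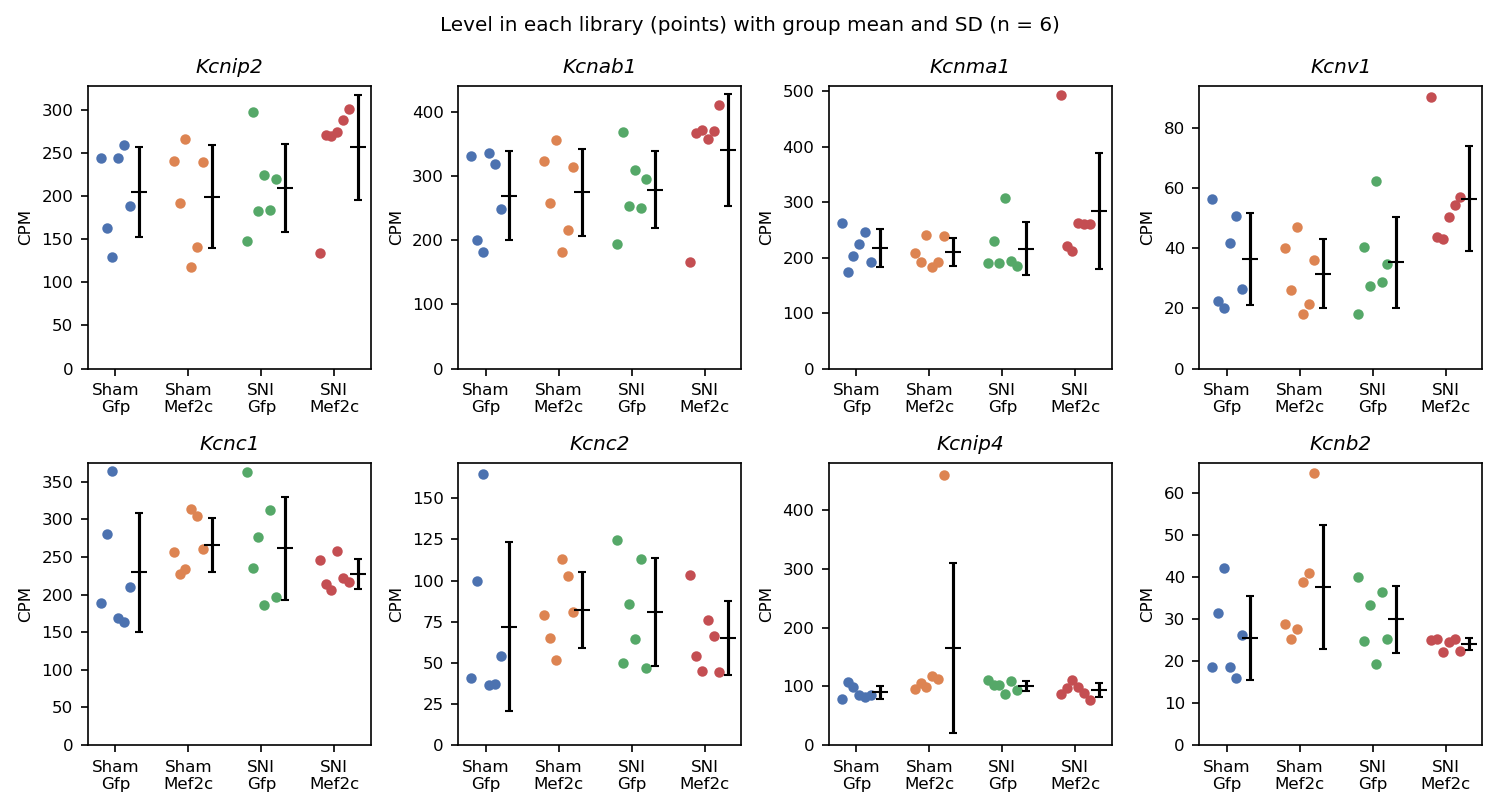
CPM (y axis, from 0) of 8 members in every library, by group, with the group mean and SD (n = 6) as a black bar beside the points. The groups overlap in all panels except Kcnb2 in SNI Mef2c and Sham Mef2c, and Sham Mef2c library 6 in Kcnip4 (459 CPM) and SNI Mef2c library 1 in Kcnma1 (494 CPM) stand apart.

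The marker means moved with this comparison too. All 10 cortical markers were higher in SNI Mef2c than in the libraries labelled Sham Mef2c, with a median log2 fold change of 1.83, and all 10 medium spiny neuron markers were higher, with a median of 0.42, though 0 of 20 passed the test. Summed cortical markers ran from 184 to 1693 CPM in SNI Mef2c and from 155 to 326 CPM in the sham group. Summed medium spiny neuron markers ran from 2461 to 7091 and from 2457 to 6340 CPM. With the cortical mean as a covariate the members with an unadjusted p under 0.05 went from 17 to 8, with the medium spiny neuron mean to 14 and with both, a fit added after the data were seen, to 10. All genes went down as well, from 16.1% to 6.15%, 13.9% and 7.7% in the same order, against 22.2%, 38.9% and 27.8% of the members. The log2 fold change of Kcnv1 went from 0.84 to 0.35 (SE 0.15) with both means in the model, that of Kcnip3 from 0.57 to 0.26 (SE 0.10), that of Kcnf1 from 0.41 to 0.17 (SE 0.08) and that of Kcnip2 from 0.36 to 0.01 (SE 0.05). Kcna1 had 0.27 (SE 0.09) and Kcns2 0.23 (SE 0.06) in that fit, and no member passed in any of these fits. Kcnv1, Kcnip3, Kcnf1 and Kcnip2 follow 1 of the means closely in these same libraries, and both means were higher in SNI Mef2c. Their values were thus bound to fall with both means in the model, so the fall tests no cause.

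**Figure D5:**
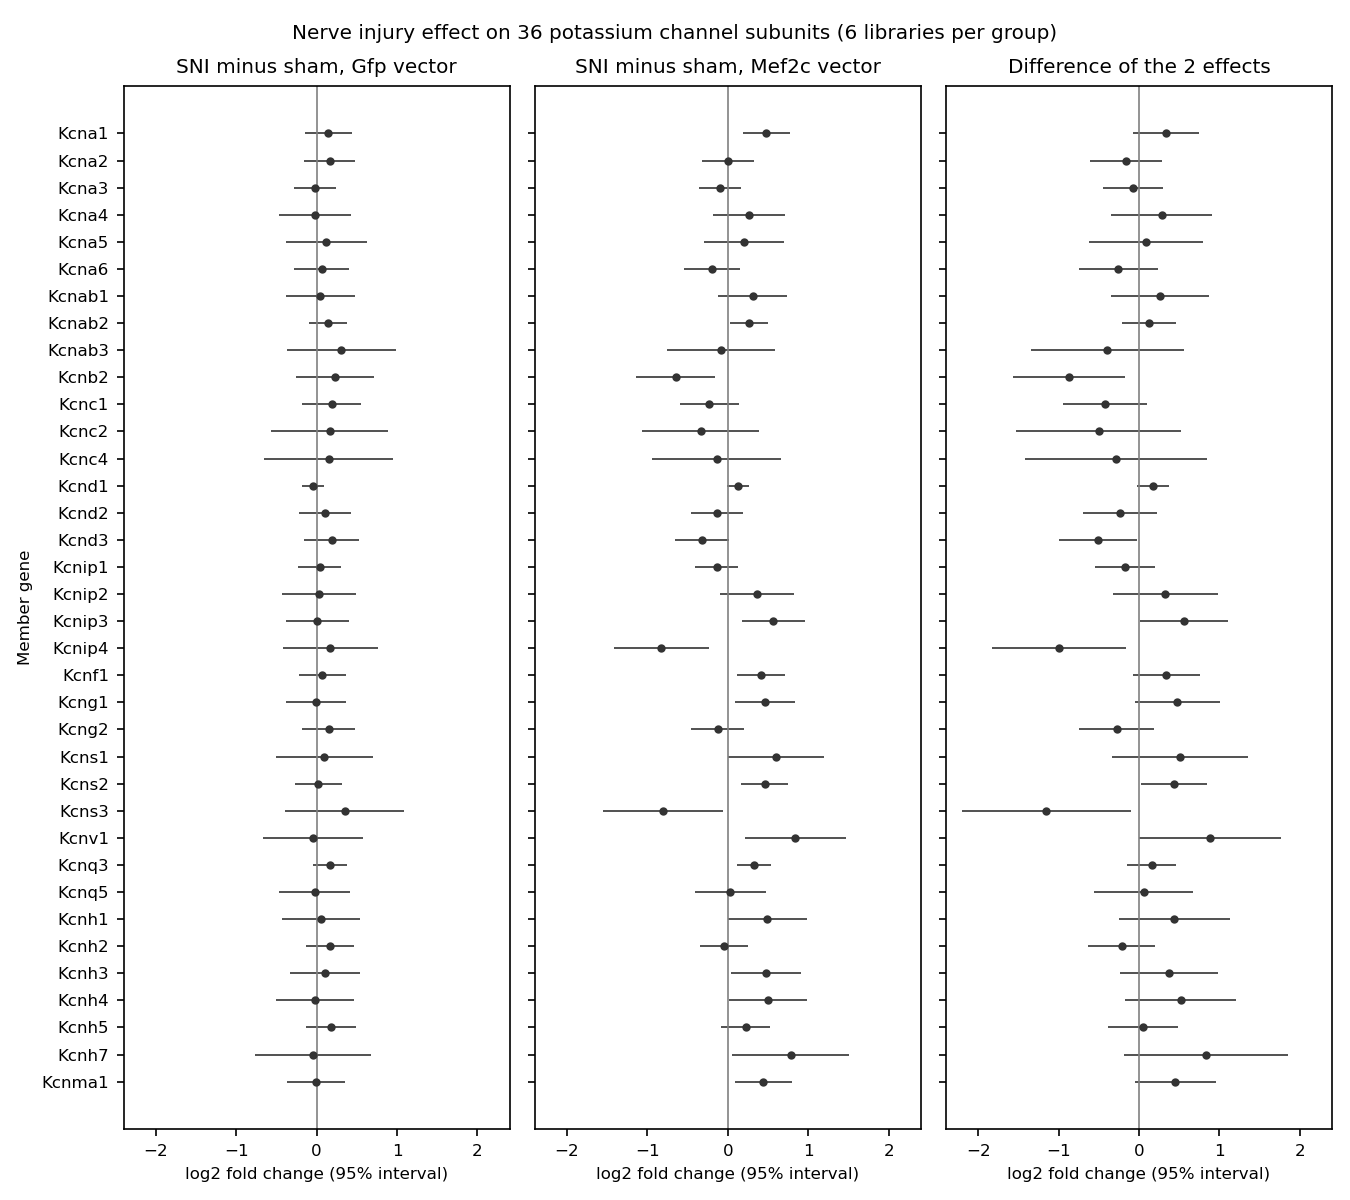
Points are log2 fold changes of the 36 members (y axis) for injury with the Gfp vector, injury with the Mef2c vector and the difference of the 2 effects, with 95% intervals from the edgeR fit (x axis, log2). No interval excludes 0 in the first panel, 17 do in the second and 6 in the third, and none passed after adjustment over 23738 genes.

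Whether the injury effect differed between the vectors was tested as an interaction. No member was called, as for 0% of all genes, and without SNI Gfp library 6 no member was called where 1.13% of all genes were. An unadjusted p under 0.05 was found for 6 of 36 members (16.7%), against 14.9% of all genes, which is near the background. The 6 were Kcnb2 (-0.87, SE 0.34), Kcnip4 (-0.995, SE 0.41), Kcns3 (-1.15, SE 0.51), Kcnd3 (-0.51, SE 0.23), Kcns2 (0.44, SE 0.20) and Kcnip3 (0.56, SE 0.27), with edgeR adjusted p between 0.313 and 0.334. Limma-voom with quality weights called 7 members, Kcns2 and Kcnv1 as higher and Kcnb2, Kcnd3, Kcnc1, Kcnc2 and Kcns3 as lower, where it called 17.2% of all genes, and DESeq2 called 0 of 35 where it called 0.00422%. For Kcnip4 the interaction was -0.37 (SE 0.12, adjusted p = 0.292) without Sham Mef2c library 6. The interval lay within 1 of zero for 23 of 36 members, so that a difference of 2-fold between the vectors lies inside the interval of the other 13.

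The vector comparison in sham mice gave many calls among all genes and none among the members. The libraries labelled Sham Mef2c differed from Sham Gfp in 9.41% of all genes and in 0 of 36 members. An unadjusted p under 0.05 was found for 4 members (11.1%), against 21.2% of all genes. These were Kcnip4, Kcnb2, Kcnd2 and Kcnd1. The ranges of the groups overlapped for all 36 members, whereas 5.97% of all genes did not overlap. Kcnip4 came nearest, with a log2 fold change of 0.88 (SE 0.29, edgeR adjusted p = 0.0575). Without library 6 the mean of the libraries labelled Sham Mef2c was 106 CPM (SD 9.35, n = 5) in place of 165 (SD 144, n = 6), and the log2 fold change was 0.25 (SE 0.09, adjusted p = 0.0977). When any 1 of the other 5 libraries of that group was left out, Kcnip4 passed, with edgeR adjusted p between 0.0303 and 0.0497, where 8.46%, 8.57%, 9.1%, 8.35% and 8.08% of all genes passed without libraries 1 to 5 in turn. Without both Sham Mef2c 2 and 5 it had 1.11 (SE 0.30, adjusted p = 0.0284, 6.88% of all genes called by edgeR). Without Sham Gfp library 3 it passed with Kcnb2 and Kcnd3 (15.1% of all genes called). DESeq2, which gave no p for Kcnip4, called 0 of 35 members where it called 10.9% of all genes. Limma-voom called Kcnb2, Kcnd3 and Kcnc1 where it called 18.6%. With the cortical mean as a covariate Kcnf1 passed (0.28, SE 0.07, edgeR adjusted p = 0.016), where 8.6% of all genes did. With both marker means it passed again (0.28, SE 0.07, edgeR adjusted p = 0.014, 12.4% of all genes), and with the medium spiny neuron mean alone 0 members passed (12.3% of all genes).

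The 3 Kv4 genes did not pass in this comparison. Kcnd2 ran from 147 to 169 CPM in Sham Gfp and from 155 to 368 in the libraries labelled Sham Mef2c. Library 6 was again the highest, and the mean of the other 5 was 174 CPM (SD 20.5). The log2 fold change over all libraries was 0.37 (SE 0.16, edgeR adjusted p = 0.164), that of Kcnd3 0.33 (SE 0.16, adjusted p = 0.261), and that of Kcnd1 -0.15 (SE 0.07, adjusted p = 0.182). In this comparison the median log2 fold change was 0.16 for the 12 members spanning over 200 kb and 0.01 for the 24 shorter ones, and without library 6 these medians were 0.11 and 0.01.

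In injured mice the vector groups differed in Mef2c level, and 0 of 36 members were called, where 0.00421% of all genes were. DESeq2 and limma-voom also called 0, where they called 1.85% and 0.0548% of all genes. An unadjusted p under 0.05 was found for 6 of 36 members (16.7%), against 14.3% of all genes. All 6 were higher in SNI Mef2c: Kcnf1 (0.44, SE 0.14, edgeR adjusted p = 0.187), Kcnq3 (0.295, SE 0.10), Kcns2 (0.39, SE 0.14), Kcnma1 (0.40, SE 0.17), Kcnv1 (0.675, SE 0.30) and Kcnh5 (0.32, SE 0.15). Kcnf1 ran from 46.0 to 81.1 CPM in SNI Gfp and from 61.3 to 113 in SNI Mef2c, so the ranges overlap. Of these 6, Kcnf1, Kcnv1 and Kcnma1 are among the closest followers of the cortical mean, and 8 of 10 cortical markers and 10 of 10 medium spiny neuron markers were higher in SNI Mef2c, with none of the 20 passing. Markers of other cells were lower in SNI Mef2c, also without passing: 6 of 6 T cell markers (median log2 fold change -5.58, with 6 at an unadjusted p under 0.05), 8 of 8 of the interferon response (-2.04, with 8) and 7 of 7 of microglia (-0.48, with 5). Their part in the members' values was not tested. This comparison shares its SNI Mef2c libraries with the injury comparison and its SNI Gfp libraries with the other, so like values between them are not independent.

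By role, the values of injury with the Mef2c vector were positive for 5 of 6 EAG, ERG and ELK genes (0.49 for Kcnh1, 0.47 for Kcnh3 and 0.50 for Kcnh4), for 5 of 7 silent subunits and for 4 of 6 Kv1 genes, and negative for all 3 Kv3 genes (-0.14 for Kcnc4 to -0.34 for Kcnc2). With the Gfp vector the Kv3 genes were all positive (0.15 for Kcnc4, 0.165 for Kcnc2 and 0.19 for Kcnc1). None of these values passed. Of the members not yet described, Kcng2, a silent subunit gene, ran from 3.44 to 8.35 CPM over all libraries and Kcnip1, the KChIP1 gene, from 41.3 to 70.5 CPM.

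Other lists place the members in their family. Of the 20 other genes named for the same channel families or their auxiliary Kcne and Kcnmb subunits, 15 were tested and 0 were called in each of the 5 comparisons by edgeR, and 0 by DESeq2. An unadjusted edgeR p under 0.05 was found for 1 to 3 of the 15 per comparison, where 12.3% to 21.2% of all genes had one. Kcne2, an accessory subunit gene of the choroid plexus, had a log2 fold change of -2.61 in SNI Mef2c against SNI Gfp (SE 0.76, edgeR adjusted p = 0.146), and choroid plexus markers summed to 957 CPM in the highest SNI Gfp library against a median of 59.8. Of 14 partner genes that cluster, anchor or traffic these channels, 2 to 7 had an unadjusted edgeR p under 0.05 per comparison. The 2 (14.3%) were in SNI Gfp against Sham Gfp, where 12.3% of all genes had one. The 7 of 14 were in the libraries labelled Sham Mef2c against Sham Gfp, where 21.2% of all genes had one. After adjustment 0 were called by edgeR, except for Vapa in the libraries labelled Sham Mef2c against Sham Gfp (0.15, SE 0.04, edgeR adjusted p = 0.0226), where 9.41% of all genes were called. With library-size scaling, with a filter that keeps any gene with a count, and on FPKM, 0 partner genes were called there. VAPA tethers the endoplasmic reticulum to Kv2 clusters at the plasma membrane.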

How the data were processed

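RNA of 24 mouse nucleus accumbens samples was sequenced from Illumina Stranded mRNA libraries. The authors deposited raw counts per gene, made with featureCounts on mm10 per the submitters' processing notes, and FPKM, which on testing equal the count divided by library total and gene span. The sources used here name no aligner, annotation or version. Gene symbols and coordinates are from GENCODE M21, and promoters from RefSeq.

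Counts were fitted with edgeR 4.0.16 in R 4.3.3 (TMM, filterByExpr, robust quasi-likelihood, 1 coefficient per group over all 24 libraries, 20 residual degrees of freedom), with Benjamini-Hochberg adjustment over 23738 genes. SE are from the quasi-likelihood fit. Log2 CPM used a prior count of 2. Comparisons share groups. Alternatives were DESeq2 1.42.0, limma-voom 3.58.1 with quality weights, library-size scaling, another count filter, FPKM on a log scale, the compared groups alone, marker means as covariates, a replicate block, and each library left out. The model scripts were tested on simulated data. Same-numbered libraries had mean correlations of -0.112 to 0.066, so no pairing by number was seen. Such means over all genes cannot exclude a pairing. The members and lists were chosen with earlier results of these data known. Members named with full statistics are the 6 with the smallest p in each comparison, and the others were chosen after their values were seen. Protein sequences were not analysed here.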

Additional observations from a re-analysis of the deposited data

Results flagged for a closer look

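In 13 of the 144 combinations of a member and a group, 1 library stood far from the other 5 by Dixon's test, where chance gives about 1 in 20, or 7.2. SNI Mef2c library 1 accounted for 10 of the 13. It was the lowest of its group for Kcna4 (28.1 CPM, next 57.4), Kcna5 (8.87, next 31.2), Kcnab1 (166, next 357), Kcnd2 (135, next 194), Kcnh2 (37.4, next 69.1), Kcnip2 (134, next 270) and Kcnq5 (140, next 198). It was the highest for Kcna6 (80.5 CPM, next 53.6), Kcnc4 (103, next 32.3) and Kcnma1 (494, next 262). Sham Mef2c library 6 was the highest for Kcnip4 (459 CPM, next 117) and for Kcnd2 (368, next 202). Sham Gfp library 3 was the highest for Kcnh2 (77.8 CPM, next 68.0).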

How the results depend on the processing

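The count of members that passed stayed at 0 with every alternative run for SNI Mef2c against Sham Mef2c and for SNI Mef2c against SNI Gfp. A change of sign was looked for only where a member passed in a fit, so it could not be found in these comparisons. Signs of members that did not pass did change. Without SNI Mef2c library 1, positive values in SNI Mef2c against SNI Gfp went from 8 to 9 of the 12 members over 200 kb. They went from 14 to 16 of the 24 shorter ones. In the other comparisons, limma-voom called 2 members in SNI Gfp against Sham Gfp, 3 in Sham Mef2c against Sham Gfp and 7 in the interaction. It called 11.7%, 18.6% and 17.2% of all genes there in turn. In Sham Mef2c against Sham Gfp, 1 passed with the cortical covariate (Kcnf1), 1 with both covariates (Kcnf1), 1 without Sham Mef2c 2 and 5 (Kcnip4) and 0 to 3 with 1 library left out. Of the other family genes, limma-voom called 1, 2 and 1 in the same 3 comparisons, the medium spiny covariate gave 1 in the second, and leaving out a library gave 0 to 1. Of the partner genes, limma-voom called 2, 6 and 4 and leaving out a library gave 0 to 1 in the first. In the second, where 1 passed, library-size scaling, the other count filter and FPKM with either pseudocount gave 0, the compared groups alone 2, DESeq2 and each covariate alone 3, both covariates 4 and leaving out a library 0 to 5. The cause was not tested. With the replicate block, 0 members were called in each of the 5 comparisons. The interaction needs all 4 groups, so it has no value for the compared groups alone. The fit with both covariates was chosen after seeing the data.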
